A study of Drosophila melanogaster with 6 samples.

Results

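Attacins, diptericins and drosocin are antibacterial peptides that *Drosophila* releases into the hemolymph, and their genes were followed here in fly heads. The set held 7 genes of the 17545 listed in the count tables: AttA (Dmel_CG10146), AttB (Dmel_CG18372), AttC (Dmel_CG4740), AttD (Dmel_CG7629), DptA (Dmel_CG12763), DptB (Dmel_CG10794) and Dro (Dmel_CG10816). These genes were chosen by peptide family and by their measured CPM, since the differences between these same ND and HSD-F1 libraries were known when the set was made. Their differences between the groups are therefore given as a description. Where counts of calls by the fit across all genes are printed for them, nothing is read from those counts. All 7 were among the 12048 genes that passed the filter of at least 10 counts over the 6 libraries, and none came near it, since their totals ran from 7799 counts (AttD) to 142053 counts (AttC).

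Head RNA was taken from 5-day-old female flies of 2 groups, and each library pooled 15 heads. The mothers of ND flies were reared from egg to adulthood on normal food with 10% sucrose, whereas the food of HSD-F1 mothers held 20% sucrose. HSD-F1 flies themselves ate the normal diet, so the groups differed in what their parents had eaten; the labels name the mother, and in the scheme of the study both parents came from the high-sugar food. Each group had 3 biological replicates of one genotype, given as W+VDRC in the labels, while the scheme of the study names Canton-S flies.

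These peptides are made mainly by the fat body, the insect counterpart of liver and adipose tissue, and also by blood cells, glia and surface epithelia. Peptidoglycan of Gram-negative bacteria binds recognition proteins of the PGRP family, and the signal passes through Imd and a kinase cascade to Relish (Rel), an NF-κB factor that switches the peptide genes on. Amidases of the same PGRP family digest peptidoglycan, and some of them are targets of the pathway that limit its activity.

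Expression is given as CPM, the usual depth-corrected count of a gene, after the library totals had been scaled with the TMM method of edgeR. The libraries held between 20266352 and 26190694 counts. All 9 head markers were detected in every library, with summed levels of 39586 to 41066 CPM across ND and 35750 to 46273 CPM across HSD-F1. Of the 8 fat body markers, 7 were detected in every library, and the sum was 66254 to 81303 CPM across ND and 65208 to 83181 CPM across HSD-F1. The 8 hemocyte markers were all detected and summed to 1061 to 1209 CPM across ND and 1036 to 1280 CPM across HSD-F1. The ranges of both marker sums thus overlapped between the groups. Such sums are weighted to the most abundant markers, and 1 fat body marker alone reached 745194 counts in a library. In RNA of whole heads, fewer cells of a type and less RNA per cell cannot be told apart.

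The 7 genes together took 0.0443%, 0.0775% and 0.343% of all counts across ND replicates 1 to 3, against 0.578%, 0.5004% and 0.780% across HSD-F1 replicates 1 to 3. Their summed level was 449.5, 761 and 3346 CPM across ND, against 5783, 5029.7 and 7992 CPM across HSD-F1. The HSD-F1 mean was 4.13 times the ND mean (6268 ± 1540 against 1519 ± 1590 CPM, SD, n = 3 each). The groups did not overlap, but ND replicate 3 stood well above the other ND libraries, and the lowest HSD-F1 library was 1.503 times as high as it. The SD of the ND libraries exceeded their mean.

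**Figure D1:**
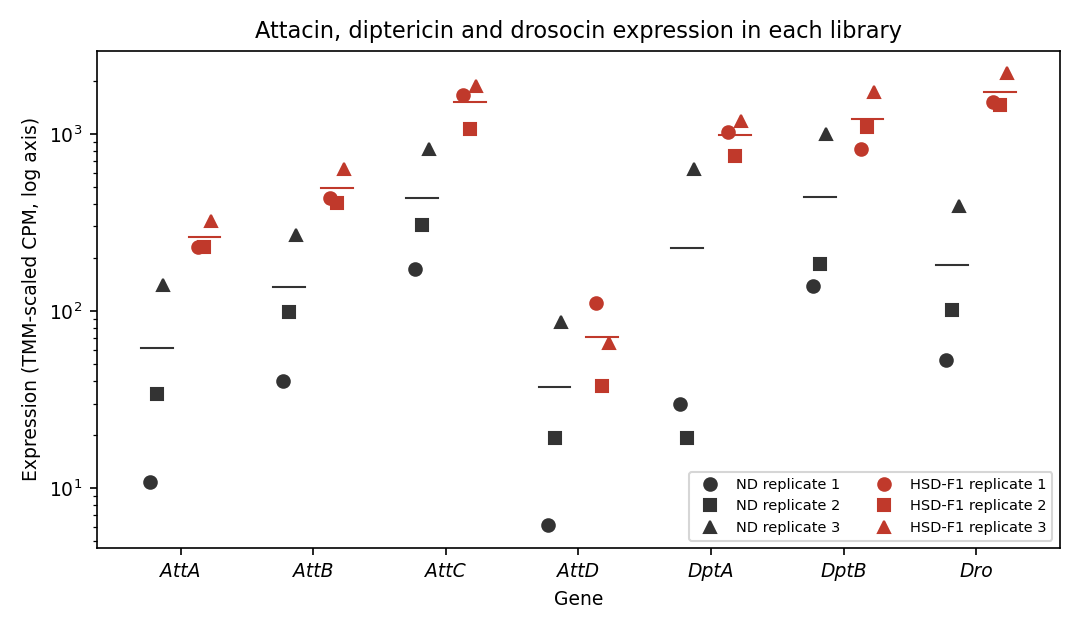
Expression of each gene in each library, in TMM-scaled CPM on a log axis, with ND in black, HSD-F1 in red, 1 marker shape per replicate number and a horizontal line at each group mean. For all 7 genes ND replicate 3 (black triangle) was the highest ND library, and for AttD and DptB it lay above at least 1 HSD-F1 library.

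Drosocin is a short, glycosylated, proline-rich peptide, and its gene Dro showed the widest separation of the groups. Dro lies on chromosome arm 2R (14745961 to 14746714, plus strand, Release 6 of the genome). It was measured at 52.8, 101.8 and 391 CPM across ND replicates 1 to 3, against 1510, 1457 and 2197 CPM across HSD-F1 replicates 1 to 3. Every HSD-F1 library was above every ND library, and the lowest of them was 3.73 times the highest ND library. The mean was 182 ± 183 CPM over ND libraries against 1721 ± 413 CPM over HSD-F1 libraries (SD, n = 3 each). The fitted log2 fold change, HSD-F1 over ND, was 3.24 with a standard error (SE) of 0.66.

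The attacins are glycine-rich peptides that act on the outer membrane of Gram-negative bacteria. AttA and AttB are neighbouring, near-identical copies on 2R (14747362 to 14748215 and 14749223 to 14750165, both on the plus strand). The study states that uniquely mapped reads were used, which would leave out reads that match both copies. The counting program is not given, so the separate values of AttA and AttB are uncertain. AttA was measured at 10.8, 33.9 and 139.7 CPM across ND replicates 1 to 3, against 228, 230.3 and 321 CPM across HSD-F1 replicates 1 to 3. AttB was measured at 40.3, 99.2 and 268 CPM across ND replicates 1 to 3, against 434, 407 and 634 CPM across HSD-F1 replicates 1 to 3. Neither gene overlapped between the groups, and the lowest HSD-F1 library was 1.63 times the highest ND library for AttA and 1.52 times for AttB. The mean of AttA was 61.4 ± 68.7 CPM over ND libraries against 260.0 ± 53.2 CPM over HSD-F1 libraries, and the log2 fold change was 2.08 (SE 0.74). The mean of AttB was 136 ± 118 CPM over ND libraries against 492 ± 124 CPM over HSD-F1 libraries, and the log2 fold change was 1.85 (SE 0.57). Without AttA and AttB, the lowest HSD-F1 library of the summed level was 1.49 times the highest ND library.

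AttC encodes an attacin whose precursor also carries a proline-rich stretch. It stands apart from the AttA and AttB pair on 2R (13393705 to 13394667, plus strand). Its level was 172, 305 and 825 CPM across ND replicates 1 to 3, against 1649, 1059 and 1859 CPM across HSD-F1 replicates 1 to 3. The groups did not overlap, with HSD-F1 replicate 2 the lowest of its group at 1.28 times ND replicate 3. The mean was 434 ± 345 CPM over ND libraries against 1523 ± 415 CPM over HSD-F1 libraries, and the log2 fold change was 1.81 (SE 0.51).

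AttD is the divergent attacin, described as lacking the signal peptide that directs the others out of the cell. It is also the only one of the 7 genes outside 2R, on 3R (17625268 to 17626086, plus strand). Its level was 6.17, 19.1 and 86.3 CPM across ND replicates 1 to 3, against 110.6, 37.8 and 65.9 CPM across HSD-F1 replicates 1 to 3. The groups overlapped, since ND replicate 3 was above HSD-F1 replicates 2 and 3, and it reached 121% of the HSD-F1 mean. The mean was 37.2 ± 43.0 CPM over ND libraries against 71.4 ± 36.7 CPM over HSD-F1 libraries. The log2 fold change was 0.94 with an SE of 0.79, the smallest among the 7 genes.

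The diptericins are glycine-rich peptides, of which DptA is known for its part in defence against *Providencia rettgeri* and DptB for its part against *Acetobacter* of the gut. Both lie on the plus strand of 2R, DptA from 18865765 to 18866260 and DptB from 18867391 to 18867895. DptA was measured at 29.95, 19.2 and 632 CPM across ND replicates 1 to 3, against 1024, 749 and 1183 CPM across HSD-F1 replicates 1 to 3. ND replicate 3 was 25.7 times the mean of ND replicates 1 and 2, the widest gap of this kind among the 7 genes, and the lowest HSD-F1 library was still 1.18 times as high. The mean of DptA was 227 ± 351 CPM over ND libraries against 985 ± 220.0 CPM over HSD-F1 libraries, and the log2 fold change was 2.12 (SE 1.12). DptB was measured at 138, 183 and 1003 CPM across ND replicates 1 to 3, against 826, 1090 and 1731 CPM across HSD-F1 replicates 1 to 3. Here the groups overlapped, with ND replicate 3 above HSD-F1 replicate 1. The mean of DptB was 441 ± 487 CPM over ND libraries against 1216 ± 465 CPM over HSD-F1 libraries, and the log2 fold change was 1.46 (SE 0.69).

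Across the 7 genes, 5 did not overlap between the groups, beside 6.67% of the 12048 genes tested whose HSD-F1 libraries were all above their ND libraries. With edgeR's quasi-likelihood test, 0 of the 7 had a Benjamini-Hochberg adjusted p under 0.05, beside 0.0664% of the genes tested (8 genes). At an unadjusted p under 0.05 with a 1.5-fold rise, 4 of the 7 were counted (AttA, AttB, AttC and Dro), beside 1.14% of the genes tested. DESeq2 and limma-voom also gave 0 of the 7 at the adjusted threshold, and 4 and 6 of them at the unadjusted one. With edgeR and a replicate block, 4 of the 7 passed the adjusted threshold (AttB, AttC, DptB and Dro), among 38 genes in all. Without ND replicate 3, 5 of the 7 passed it, among 21 genes. With replicates 1 and 2 of each group only, 3 of the 7 passed it, among 18 genes. The genes were selected with this contrast known, so nothing is read from these counts. The median log2 fold change was 1.85 for the 7 genes and 0.00 for all genes tested.

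The size of these differences depended on ND replicate 3. It was the highest ND library for all 7 genes, from 3.46 times (AttC) to 25.7 times (DptA) the mean of ND replicates 1 and 2. Left out, it raised the log2 fold change to 4.47 (SE 0.35) for Dro, 3.54 (SE 0.46) for AttA, 2.81 (SE 0.39) for AttB and 2.67 (SE 0.32) for AttC. The corresponding values were 2.49 (SE 0.56) for AttD, 5.32 (SE 0.30) for DptA and 2.92 (SE 0.33) for DptB. DptA, below Dro with all libraries, was then above it. Leaving out any other library kept the log2 fold changes between 0.44 (AttD) and 3.35 (Dro). Since ND replicate 3 was the ND library nearest to HSD-F1 for every gene, leaving it out could only widen the differences, and the values without it are no test.

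**Figure D2:**
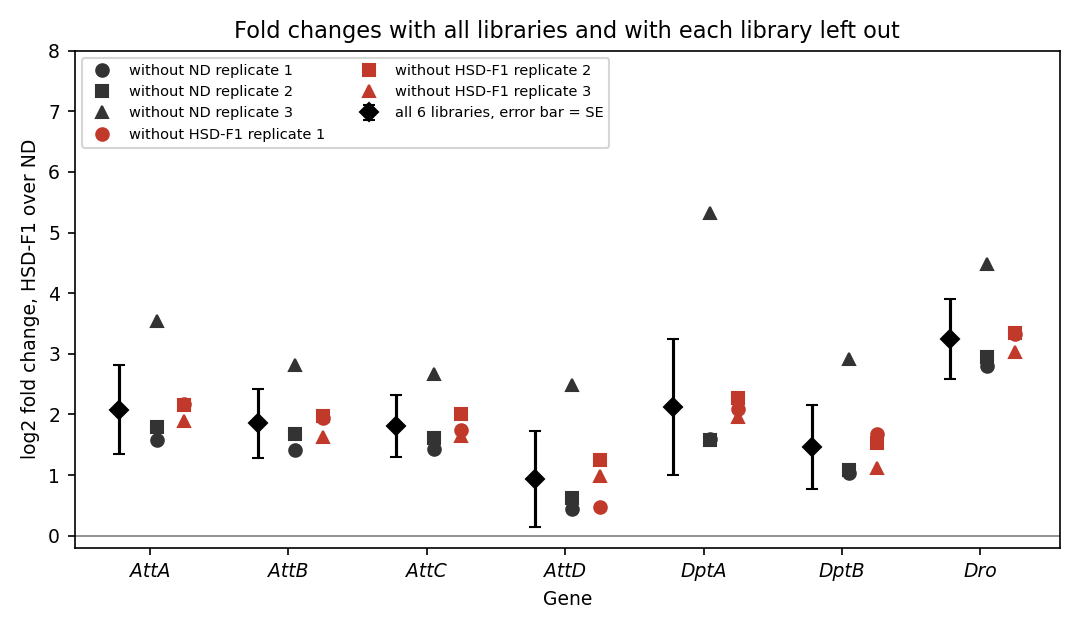
The log2 fold change, HSD-F1 over ND, of each gene with all 6 libraries (black diamonds, error bars are the SE) and with each library left out in turn (ND libraries in black, HSD-F1 libraries in red). Leaving out ND replicate 3 (black triangles) gave the highest value for each gene, up to 5.32 for DptA, and no value was below 0.

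ND replicate 3 also differed in markers of another tissue. The 14 ovary and egg markers summed to 63.6 CPM in ND replicate 3, against 3.04 and 3.46 CPM in the other ND libraries and 3.42 to 14.1 CPM in HSD-F1, and only 4 of the 14 were detected in every library. Of the 8 gut markers, 3 were detected in every library and 1 was at 0 throughout. Their sum was 2.78 CPM in ND replicate 3, the lowest of ND, and reached 18.0 CPM in ND replicate 1 and 15.2 CPM in HSD-F1 replicate 1. The part of these tissues in the values of the 7 genes was not tested.

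Relative to the mean, the spread within a group was wider in ND than in HSD-F1 for each of the 7 genes, with ND replicate 3 among the ND values. In CPM, the SD was larger in HSD-F1 for AttB, AttC and Dro. The coefficient of variation ranged from 79.6% (AttC) to 154% (DptA) in ND and from 20.5% (AttA) to 51.4% (AttD) in HSD-F1. The highest ND library was between 4.80 and 33.0 times the lowest, and the highest HSD-F1 library between 1.41 and 2.92 times the lowest. The biological coefficient of variation that edgeR fitted over both groups was 42.2% (AttC) to 85.2% (DptA), beside a median of 13.0% over the 8864 tested genes with a mean of at least 50 counts. Each of the 7 genes was more variable than at least 99.1% of those genes. Among the HSD-F1 libraries, replicate 3 was the highest for 6 genes and replicate 1 for AttD. Replicate 2 was the lowest for 5 genes, and replicate 1 for AttA and DptB.

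Levels were compared between genes per length, as CPM per kilobase of exon. In ND the order of the means was DptB (983 ± 1085), AttC (482 ± 383), DptA (458 ± 708), Dro (241 ± 242), AttB (155 ± 135), AttA (77.8 ± 87.0) and AttD (50.2 ± 58.0). No step in the ND order exceeded the SD of the higher gene of the step, but that SD is a spread between libraries. Within each ND library the order apart from DptA was the same: DptB, AttC, Dro, AttB, AttA and AttD. DptA was below Dro in ND replicates 1 and 2 and above AttC in ND replicate 3. In HSD-F1 it was DptB (2708 ± 1037), Dro (2283 ± 548), DptA (1986 ± 444), AttC (1692 ± 461), AttB (560 ± 141), AttA (329 ± 67.4) and AttD (96.3 ± 49.4). Within the first 4 of these, each gene differed from the next by less than the SD of the higher one. AttC was still the lowest of these 4 in every HSD-F1 library. The steps from AttC to AttB, from AttB to AttA and from AttA to AttD exceeded that SD. AttD was the lowest of the 7 in all 6 libraries, and DptB was the highest in every library except HSD-F1 replicate 1, where DptA was. Ranked per length among the 12048 genes tested, DptB moved from position 68 in ND to 15 in HSD-F1, Dro from 325 to 18, DptA from 173 to 22 and AttC from 163 to 29. AttB moved from 485 to 161, AttA from 934 to 255 and AttD from 1394 to 778. These are positions of group means, and ND replicate 3 raised the ND means of all 7 genes. For DptA the level per length was 60.4 and 38.7 in ND replicates 1 and 2 but 1275 in ND replicate 3.

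The make-up of the sum also differed between libraries. Dro made up 11.7%, 13.4% and 11.7% of the summed CPM of the 7 genes in ND replicates 1 to 3, and 26.1%, 29.0% and 27.5% in HSD-F1. The share of Dro in ND replicate 3 was thus close to that in ND replicate 1, although the summed levels of these libraries were far apart. DptA made up 6.66% and 2.52% in ND replicates 1 and 2 but 18.9% in ND replicate 3, above the 14.8% to 17.7% found in HSD-F1. AttC made up 38.2%, 40.0% and 24.7% in ND and 28.5%, 21.1% and 23.3% in HSD-F1, so the share in ND replicate 3 was inside the range of HSD-F1.

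Ratios within a library do not depend on its scaling. DptB over DptA, per length, was 5.08 and 10.6 in ND replicates 1 and 2, 1.75 in ND replicate 3, and 0.892, 1.61 and 1.62 in HSD-F1. AttB over AttA was 3.36, 2.63 and 1.73 in ND and 1.71, 1.59 and 1.77 in HSD-F1, though reads shared by these copies limit that ratio. In both pairs ND replicate 3 was close to the HSD-F1 libraries. Dro over AttC was 0.367, 0.399 and 0.566 in ND and 1.09, 1.64 and 1.41 in HSD-F1. In that ratio ND replicate 3 stayed with its own group, and Dro was below AttC per length in all ND libraries and above it in all HSD-F1 libraries. Dro over AttA, its neighbour, was 5.13, 3.14 and 2.93 in ND and 6.93, 6.63 and 7.16 in HSD-F1, with no overlap. AttC over AttD was 23.0, 13.1 and 7.88 in ND and 12.3, 23.1 and 23.3 in HSD-F1, so the groups overlapped. Ratios of the other pairs are not given.

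**Figure D3:**
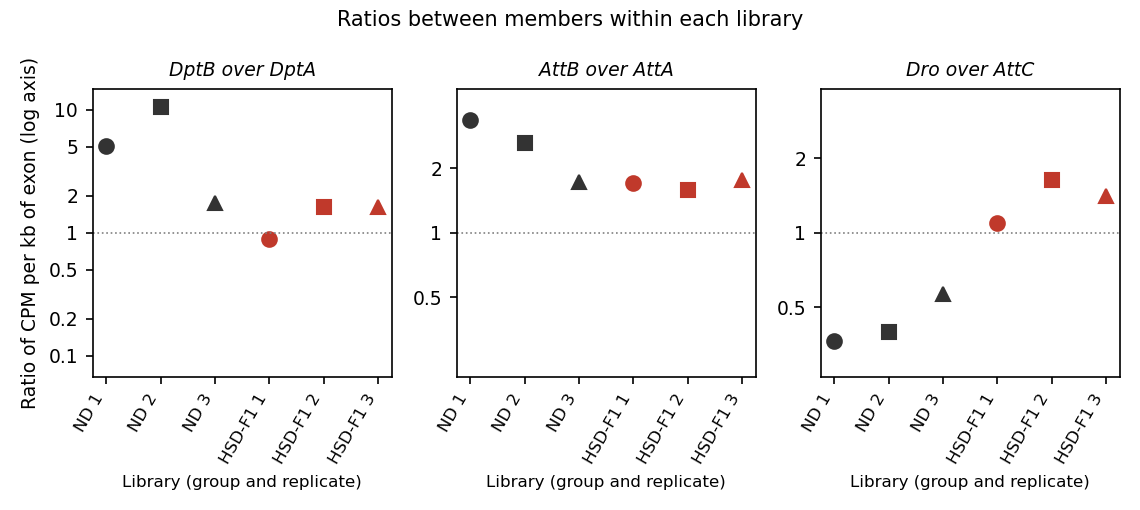
Ratios of CPM per kilobase of exon between pairs of the 7 genes in each library, on log axes that differ between the panels, with ND in black, HSD-F1 in red and a dotted line at equal levels. ND replicate 3 (1.75 and 1.73) lay beside the HSD-F1 libraries for DptB over DptA and AttB over AttA, and apart from them (0.566) for Dro over AttC.

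The patterns of the 7 genes across the libraries were alike. Pearson's r of log2 CPM over the 6 libraries ranged from 0.82 (AttD and Dro) to 1.00 (AttA and AttB) over the 21 pairs, with a median of 0.945. The 6 pairs with AttD had a median of 0.877 and the 15 other pairs a median of 0.965. After the group means were taken away, r ranged from 0.791 to 0.994 with a median of 0.926. ND replicate 3, which lay far above the other ND libraries for all 7 genes, enters each of these values. Within HSD-F1 the genes did not all follow one order, since AttD was highest in replicate 1 and DptB was lowest there. The 6 points share libraries and the difference between groups, and these values are descriptions. The mean pattern, as log2 CPM centred on each gene's mean, was -2.66, -1.79 and 0.57 in ND replicates 1 to 3 and 1.30, 0.96 and 1.63 in HSD-F1.

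Among 8857 other genes with a mean of at least 50 counts, 68 (0.768%) had an r above 0.9 with this mean pattern over the 6 libraries. The 8 highest were CG34054 (0.979), otk2 (0.978), Atx2 (0.972), edin (0.971), GstE7 (0.969), CG10809 (0.969), IBIN (0.968) and CG13014 (0.968). Likeness of pattern did not mean likeness of size. The log2 fold change was 3.55 (SE 0.99) for IBIN, 2.88 (SE 1.15) for edin and 1.42 (SE 0.39) for CG34054, but between 0.13 and 0.33 for the other 5. Both edin and IBIN encode short peptides known to rise on infection. The counts of edin were 1, 34 and 436 in ND and 1553, 393 and 1080 in HSD-F1, so that ND replicate 3 overlapped the HSD-F1 libraries. The counts of IBIN were 26, 17 and 487 in ND and 1415, 1923 and 2477 in HSD-F1, without overlap. With a minimum mean of 500 counts, 3 of the 8 (Atx2, edin and IBIN) were again among the 8 highest.

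**Figure D4:**
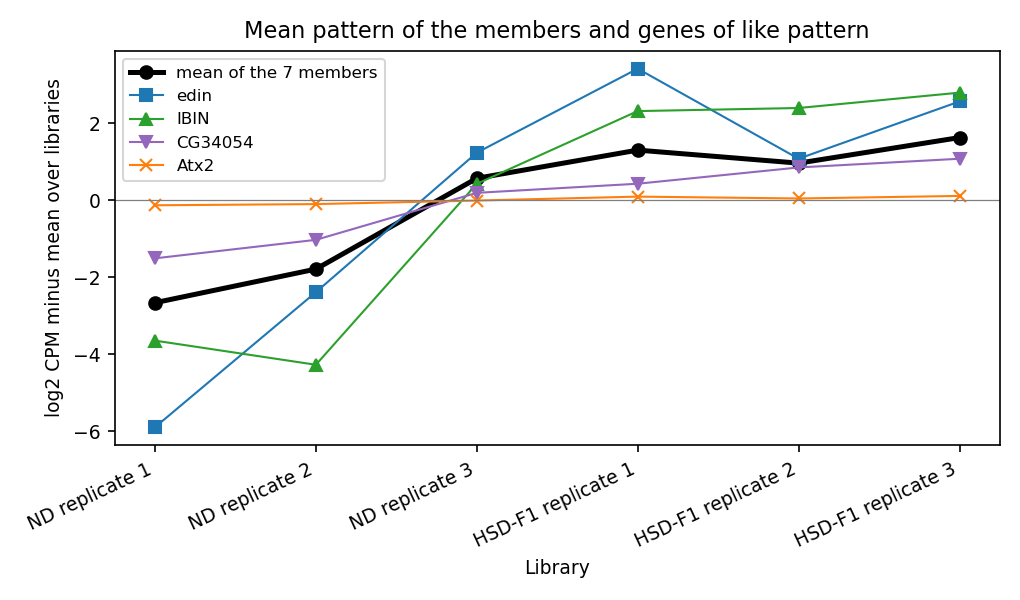
The mean pattern of the 7 genes (thick black line) beside edin, IBIN, CG34054 and Atx2, as log2 CPM minus the mean of the gene over the 6 libraries; lines join the libraries to show each pattern. The 7 genes ran from -2.66 in ND replicate 1 to 1.63 in HSD-F1 replicate 3, and Atx2, with an r of 0.972, stayed close to 0 in every library.

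Most of the 7 genes lie in clusters on 2R. Dro, AttA and AttB stand in a row on one strand within 4205 bp, with gaps of 647 bp and 1007 bp between them, and DptA and DptB lie within 2131 bp with a gap of 1130 bp. The genes that flank the first cluster showed no difference of like size between the groups. Their log2 fold change was -0.01 (SE 0.10) for jef and -0.09 (SE 0.11) for Rpn6, which adjoins AttB on the opposite strand. Around the diptericins, the log2 fold change was 0.84 (SE 0.25) for CG43071 and 0.08 (SE 0.11) for sano. BaraA2, a baramicin gene that lies 12343 bp beyond AttC and has a near-identical copy of its own, had a log2 fold change of 1.07 (SE 0.24). In edgeR's quasi-likelihood test none of these 5 flanking genes passed the adjusted threshold, the lowest adjusted p being 0.911. CG43071 and BaraA2 passed the unadjusted threshold. Over all genes tested, 0.0664% passed the adjusted threshold and 1.14% the unadjusted one as higher, and nothing is read from so few flanking genes. CG43691 beside AttC and CG14325 and a tRNA gene beside AttD had 33 counts or fewer over the 6 libraries. AttC and DptB overlap a gene on the opposite strand, CG4744 by 53 bp and CG43109 by 48 bp. Those genes had 27 and 147 counts over all libraries, against 142053 for AttC and 123470 for DptB.

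For the pathway that drives these genes, mRNA levels were read from lists of its components. The activity of the pathway was not measured. None of the 14 Imd signaling genes passed either threshold in edgeR's test. None had an unadjusted p under 0.05, beside 5.07% of all genes tested. Over all genes tested, 0.0664% passed the adjusted threshold and 1.14% passed the unadjusted one as higher. A count of 0 among 14 genes is thus near the share over all genes. DESeq2 and limma-voom also called 0 of the 14 at the adjusted threshold, and each gave 1 with an unadjusted p under 0.05. Of the 14, 9 were higher and 5 lower in HSD-F1, with a median log2 fold change of 0.02 beside 0.00 over all genes tested. The most abundant were eff, Uev1A and ben, whose products act at the ubiquitin-conjugating step of the pathway. Their log2 fold changes were -0.03 (SE 0.11), 0.01 (SE 0.08) and 0.15 (SE 0.09). Rel, chosen after its values were seen, had the highest value of the list. It was measured at 127, 165 and 204 CPM across ND replicates 1 to 3, against 224, 219.9 and 192 CPM across HSD-F1 replicates 1 to 3, so the groups overlapped, and the log2 fold change was 0.35 (SE 0.16, adjusted p = 0.911).

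The Imd regulators and amidases held the largest single value. PGRP-SC2, an amidase that digests peptidoglycan, had 63, 61 and 218 counts in ND and 2404, 730 and 1868 counts in HSD-F1, with no overlap. Its mean was 4.42 ± 3.46 CPM over ND libraries against 73.3 ± 45.3 CPM over HSD-F1 libraries (n = 3 each), and the log2 fold change of 4.05 (SE 0.64) was higher than that of any of the 7 peptide genes with all libraries. Without ND replicate 3 it was 4.92, below the 5.32 of DptA. It passed the unadjusted threshold in edgeR's test but not the adjusted one (adjusted p = 0.233, with a range from 0.000771 to 0.999 over the other settings). PGRP-SB1, another amidase, was measured at 117, 183 and 141 CPM across ND replicates 1 to 3, against 295, 192 and 369 CPM across HSD-F1 replicates 1 to 3. Its log2 fold change was 0.96 (SE 0.24), past the unadjusted threshold, with an adjusted p of 0.911 in edgeR's test and a range from 0.00785 to 1.00 over the other settings. Of the 17 genes listed, 16 were tested, 9 were higher and 7 lower, the median log2 fold change was 0.03, and 0 passed the adjusted threshold while 3 had an unadjusted p under 0.05, beside 5.07% of all genes tested. DESeq2 called PGRP-SC2 and PGRP-SB1 at the adjusted threshold, and limma-voom called 0. The remaining gene with an unadjusted p under 0.05 was PGRP-LB, an amidase that limits the pathway, with a log2 fold change of 0.48 (SE 0.19), under the 1.5-fold threshold; it is named after its value was seen. The abundant PGRP-SD, a secreted recognition protein, and casp, an inhibitor of Relish cleavage, had log2 fold changes of -0.05 (SE 0.24) and -0.08 (SE 0.14). The lowest value of the list was that of cad, named after its value was seen, which encodes a homeobox factor that represses peptide genes in the gut. It had 8, 1 and 24 counts in ND against 1, 0 and 4 counts in HSD-F1, so the groups overlapped at very low counts, and the log2 fold change was -2.54 (SE 1.14). With edgeR on TMM-scaled counts of all libraries cad did not pass the unadjusted threshold. It passed as lower with DESeq2, with library totals, with genes of at least 1 count and with a replicate block. It also passed without ND replicate 2 or HSD-F1 replicate 3. It did not pass with limma-voom, with DESeq2 size factors in edgeR or with replicates 1 and 2 of each group only. Nor did it without ND replicate 1 or 3, or without HSD-F1 replicate 1 or 2. With 1 library left out its log2 fold change ranged from -4.01 to -1.28. The highest count of cad was in ND replicate 3, the library with the highest sum of ovary and egg markers.

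Of 7 other antimicrobial peptide genes, all 7 were higher in HSD-F1, with a median log2 fold change of 1.59, and 5 passed the unadjusted threshold, beside 1.14% of the genes tested. DESeq2 gave 3 of the 7 at that threshold (Def, Drs and Mtk), without CecA1 and CecA2. Mtk, which encodes the antifungal metchnikowin, had an adjusted p of 0.0221 in edgeR's test (log2 fold change 1.97, SE 0.21). It was measured at 49.4, 47.3 and 65.6 CPM across ND replicates 1 to 3, against 210.5, 156 and 267 CPM across HSD-F1 replicates 1 to 3, without overlap. Its adjusted p ranged up to 0.207 over the other settings. The other 4 were the cecropins CecA1 (1.76) and CecA2 (1.73), Def (1.59), which encodes defensin, and Drs (1.52), which encodes the antifungal drosomycin, each given as its log2 fold change. With 1 library left out, the value of Def ranged from 0.61, without HSD-F1 replicate 1, to 1.97, and that of CecA1 from 1.199 to 2.66, CecA2 from 1.22 to 2.51 and Drs from 1.22 to 1.82. Without ND replicate 2 or HSD-F1 replicate 3, neither CecA1 nor CecA2 passed the unadjusted threshold, and without HSD-F1 replicate 1 CecA2 did not. This list, like the 7 genes, was drawn up with results of these libraries known, and its direction supports nothing.

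**Figure D5:**
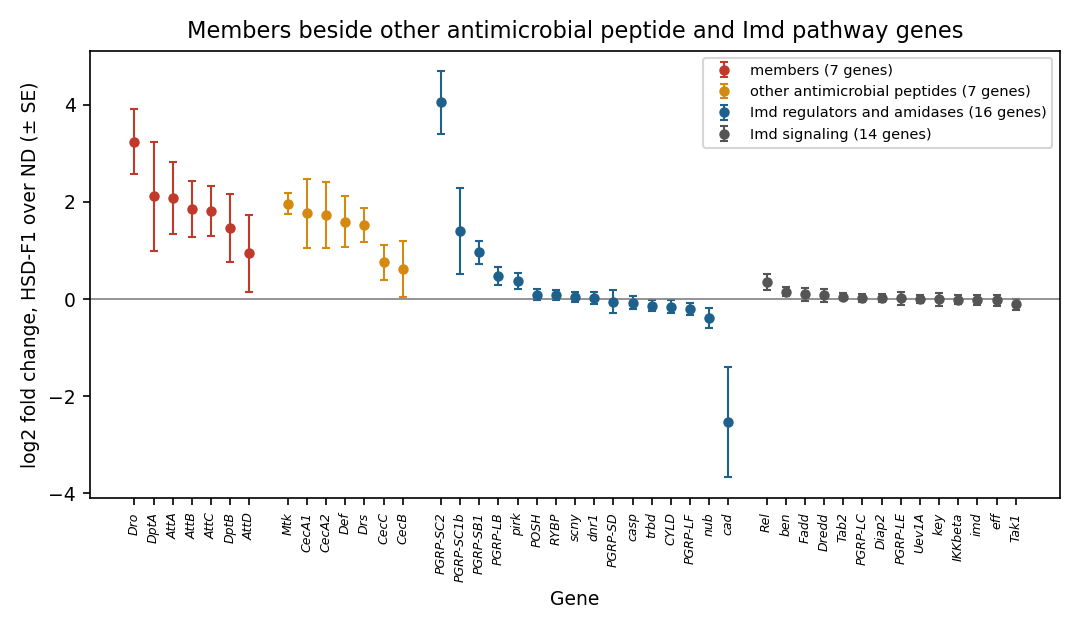
The log2 fold change, HSD-F1 over ND, of the 7 genes (red), 7 other antimicrobial peptide genes (orange), 16 Imd regulators and amidases (blue) and 14 Imd signaling genes (grey), sorted within each list, with SE as error bars. The peptide genes and PGRP-SC2 (4.05) lay above most of the regulators, and the signaling genes lay between -0.11 and 0.35.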

How the data were processed

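For each of the 6 libraries, the authors deposited whole-number counts of reads per gene, with exonic lengths, without normalization and without pooling replicates. The study states that uniquely mapped paired-end reads were used. The submitters' processing notes name HISAT2 2.0.4, Bowtie2 2.2.5, RSEM 1.2.12 and DESeq2 1.4.5, while the counting program and the use of strand are not given in the sources used here. Positions are those of the deposited tables and equalled RefSeq's Release 6 positions for all 7 genes; 17504 of 17545 locus tags were matched to RefSeq symbols.

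After a filter that asked for 10 or more counts summed across libraries, counts were scaled with TMM and compared with glmQLFit and glmQLFTest (edgeR 4.0.16, R 4.3.3), with group as the only term. DESeq2 1.42.0, limma-voom (limma 3.58.1), other scalings and filters, a replicate block and leaving out each library were the alternatives. The code was tested on simulated data. Log2 CPM used a prior count of 2. The study calls the replicates biological. Python 3.11.15, numpy 2.4.6, pandas 2.3.3 and matplotlib 3.10.9 made tables and plots.

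The genes named were the 7 peptide genes, their overlapping and nearest genes, the 8 genes of highest r with their mean pattern, and, of each list, the 3 most abundant tested genes and each gene past a threshold. The members and lists were chosen with earlier results of these data known. Promoter motifs and protein sequences were not analysed here.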

Additional observations from a re-analysis of the deposited data

How the results depend on the processing

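Over 14 other settings, all 98 log2 fold changes of the 7 genes were positive (0.44 to 5.32). These settings rerun the same 6 libraries, and the genes were chosen with this contrast known. For the 5 genes without overlap between the groups, leaving out a library could hardly reverse the sign. The 98 positive signs are therefore no test. Moves were set against the spread between replicates (1 SD of log2 CPM), which ND replicate 3 enters. Of the 98 values, 91 moved by less than that SD, among them AttB from 1.85 to 2.81 without ND replicate 3. The 7 that moved further all came from leaving out ND replicate 3, alone or as part of keeping replicates 1 and 2 of each group only. Their median log2 fold change was 1.43 to 2.92 with 1 library left out. The lowest HSD-F1 library of the sum was 1.46 times the highest ND library with library totals in place of TMM. The number of genes with an adjusted p under 0.05 was 8, but 28 with DESeq2, 5 with limma-voom, 18 with replicates 1 and 2 of each group only (chosen after seeing the data) and 4 to 21 with 1 library left out. The number past the unadjusted threshold in either direction was 218, but 119 with at least 10 counts in every library, 140 with DESeq2 and 203 to 252 with 1 library left out. Of the Imd signaling genes and regulators, 0 passed the adjusted threshold, but 1 did with all genes of at least 1 count, 2 with DESeq2 and 0 to 1 with 1 library left out. At the unadjusted threshold the number was 2, but 5 with replicates 1 and 2 only and 2 to 4 with 1 library left out. The likeness list kept 3 of its 8 genes at a minimum mean of 500 counts. The causes were not tested.

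Whether the replicate numbers pair the samples is not given in the sources used here. Deviations from the group means correlated by 0.355, -0.094 and 0.367 between libraries of the same number. Between libraries of different numbers they correlated by -0.444 to 0.141. With a replicate block, 38 genes had an adjusted p under 0.05, of which 1 was among the Imd genes. With 3 libraries a group and ND replicate 3 apart from the others, the size of each difference is known only roughly. The planned search of promoters for motifs and comparison of protein sequences were not run.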
